A study of Mus musculus with 63 samples.

Results

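Kcnj14, Kcnj2, Kcnj12, Kcnj3, Kcnj5, Kcnj8 and Kcnj11, the inward-rectifier potassium channel genes described here, were measured as heart mRNA in the 8 inbred mouse strains from which Diversity Outbred mice descend. The members are the rows of the count table that carry these 7 symbols, 7 of the 19220 genes listed and 7 of the 10 Kcnj genes listed. They were chosen with strain results of the same libraries known, so their strain levels are given as a description and carry no p-value. The labels name the strains WSB, PWK, NZO, NOD, Cast, B6, AJ and 129, with 7 libraries of Cast and 8 of each other strain, and the reference genome was read from B6 mice. Every group ate a diet rich in fat (45%) and sugar, so none of the 63 libraries is free of it, and the labels give no other treatment or engineered allele. The labels give no sex, age or heart chamber, and nothing beyond the library titles says that replicates are separate animals, so the spread between them may be partly technical.

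Inward rectifiers are potassium channels that pass current more readily into the cell than out of it, because intracellular magnesium and polyamines plug the pore during depolarisation. In heart muscle the Kir2 channels carry the current that holds the resting potential, the G protein-gated (GIRK) channels open on muscarinic and adenosine receptor signalling, mainly in atrium and nodes, and the ATP-sensitive (KATP) channels open when cell energy falls. Each channel is a tetramer, all of them need the membrane lipid PIP2 to open, and KATP pores are assembled with a sulfonylurea receptor.

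Kcnj14 (Kir2.4), Kcnj2 (Kir2.1) and Kcnj12 (Kir2.2) encode Kir2 subunits, Kcnj3 (GIRK1) and Kcnj5 (GIRK4) the subunits of the atrial acetylcholine-gated channel, and Kcnj8 (Kir6.1) and Kcnj11 (Kir6.2) the KATP pore subunits. The stretch of coding sequence around the selectivity filter is shown for 6 of the genes because it is the part that defines the family, and the capitals mark the 9 bases of the Gly-Tyr-Gly or Gly-Phe-Gly signature. It was read 5′ to 3′ on the coding strand from the longest coding sequence of each of these genes in GENCODE M21 (GRCm38).
Kcnj14: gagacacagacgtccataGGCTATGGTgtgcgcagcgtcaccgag
Kcnj2: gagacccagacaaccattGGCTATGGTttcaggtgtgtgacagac
Kcnj3: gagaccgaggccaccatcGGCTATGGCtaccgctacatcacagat
Kcnj5: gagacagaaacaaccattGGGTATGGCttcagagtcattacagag
Kcnj8: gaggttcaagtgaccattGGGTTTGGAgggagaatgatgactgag
Kcnj11: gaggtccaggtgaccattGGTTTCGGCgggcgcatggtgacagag
The Kir2 and GIRK genes shown carry a tyrosine codon in the middle of the signature and both KATP genes a phenylalanine codon. Over the whole coding sequence, identity was 75.1% between the KATP genes Kcnj8 and Kcnj11 and 68.1% between the GIRK genes Kcnj3 and Kcnj5. No stretch of 50 bases was shared between any of the 7 genes.

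The genes lie on 5 chromosomes of GRCm38. Kcnj14 (chr7:45816461-45824756, minus strand) and Kcnj11 (chr7:46098725-46099897, minus strand) share a chromosome at a distance of 273968 bases, and Kcnj2 (chr11:111066164-111076821) and Kcnj12 (chr11:61022564-61071131) are both on the plus strand of chromosome 11. Kcnj3 is at chr2:55435970-55598145 on the plus strand, Kcnj5 at chr9:32314783-32344237 and Kcnj8 at chr6:142564837-142571614, both on the minus strand. The deposited span of Kcnj11 holds 1173 bases, its coding length alone, against 3677 exon bases in GENCODE M21, so its values per length rest on the coding part. Kcnj14 shares 822 of its 2666 windows of 50 bases with the processed pseudogene Gm5522, which is not used here, and its level is uncertain to that extent. Kcnj3 shares 1526 of 5215 windows with the antisense gene Gm26794, and since strand use in counting is not given in the sources used here, reads of the pair cannot be told apart.

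Total estimated counts per library ran from 21.8 M to 42.9 M (median 30.4 M). Levels are given as CPM, counts scaled to library size with TMM factors, and per kilobase of exon in the deposited gene span (CPM per kb) wherever genes are compared with each other. In bulk heart RNA, fewer cells of a type and less RNA per cell cannot be told apart. Markers of ventricular muscle (Myl2, Myl3, Myh6, Tnni3, Ryr2) and of atrial muscle (Myl7, Myl4, Sln, Nppa, Bmp10) were found in all libraries. WSB replicate 1, called WSB_1, stood apart: its 5 ventricular markers summed to 27762 CPM, against 42581 to 49228 CPM in the other WSB libraries, its 5 endothelial markers to 1061 CPM, against 642 to 805 CPM, and its 6 pericyte markers to 699.6 CPM, against 727 to 945 CPM. In the ventricular sum Myh6 weighs most, with a median of 30385 CPM over all libraries, against 2288 to 4668 CPM for each other marker. The low ventricular sum of WSB_1 may therefore rest mostly on Myh6, and the markers are not given singly. In WSB_1, 6 of the 7 members lay at 0.148 to 0.508 times the mean of the other WSB libraries, while Kcnj8 lay at 1.07 times. WSB levels of the members are therefore given with and without WSB_1, and whether its cell makeup set these levels was not tested. Cast_1 held 38.0 CPM over the 4 measured skeletal muscle markers, against 0.134 to 0.811 CPM in the other Cast libraries. Cast_1, Cast_5 and Cast_6 were the extreme Cast libraries for Kcnj5, so the Cast levels of Kcnj14, Kcnj12, Kcnj5 and Chrm2 are given without these 3 too.

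**Figure D1:**
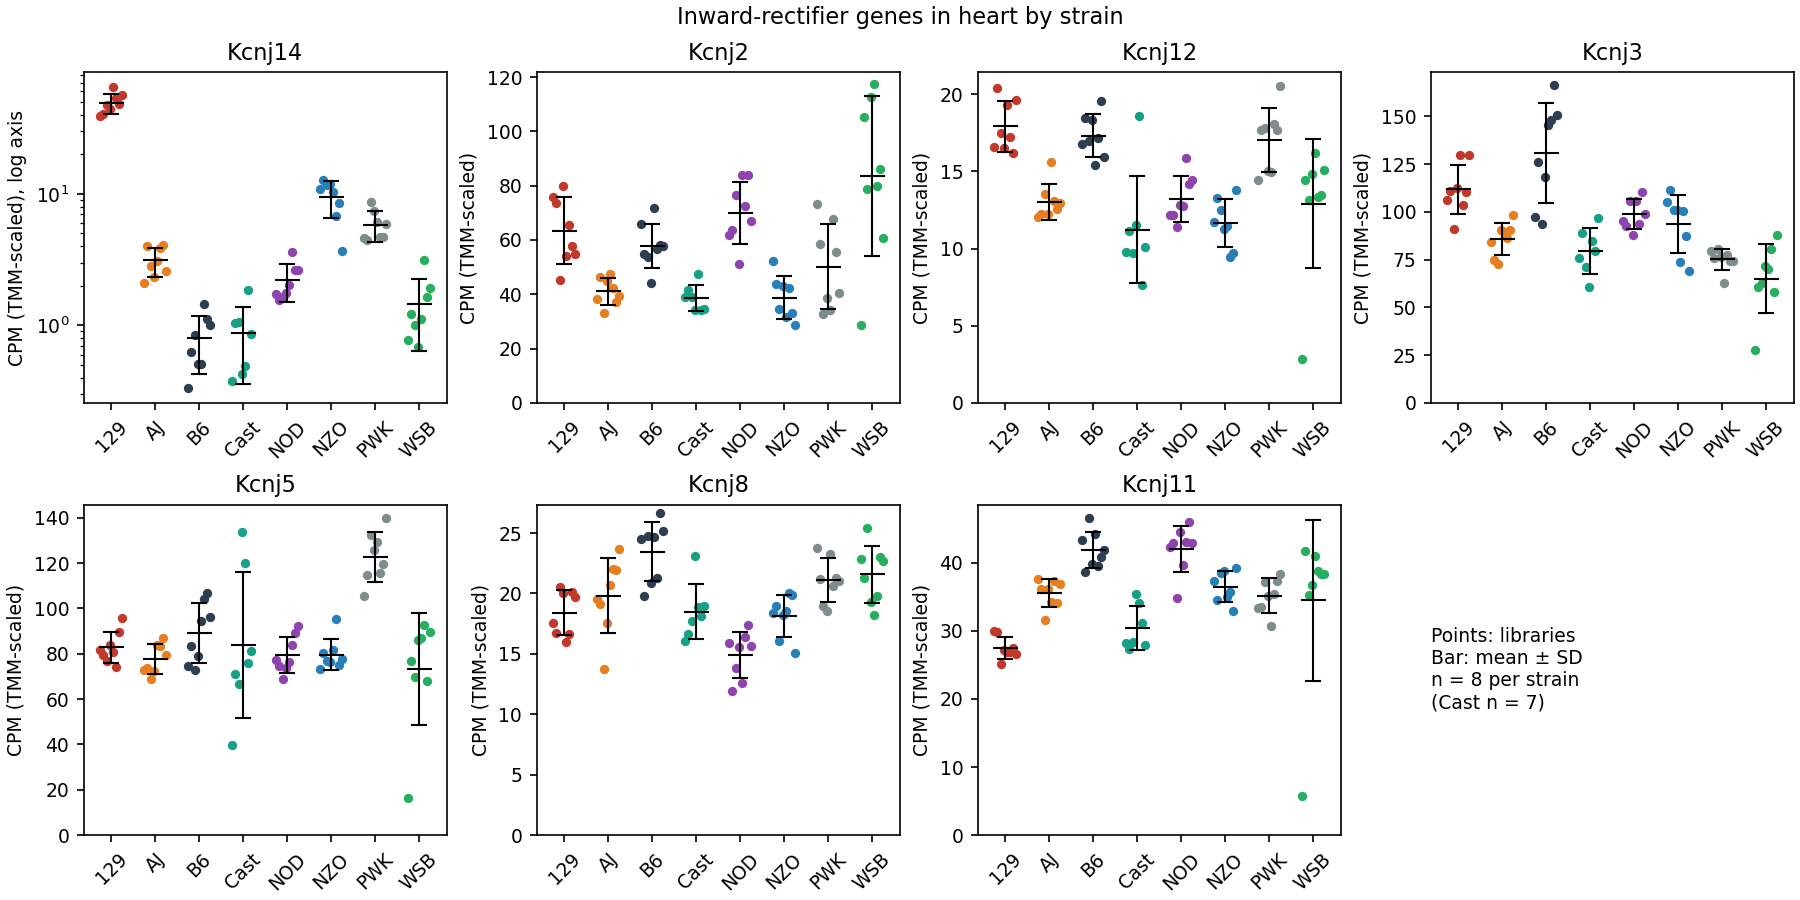
TMM-scaled CPM of each gene (vertical axes, logarithmic for Kcnj14 and from 0 for the others) in the 8 strains (horizontal axes), with a point per library and bars for mean ± SD. Kcnj14 lies between 38.7 and 64.5 CPM in 129 and at 12.7 CPM or less elsewhere, and WSB_1 is the low WSB point of Kcnj11, Kcnj12, Kcnj5, Kcnj3 and Kcnj2.

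All 7 members passed the test over the 8 strains by edgeR's quasi-likelihood F test at a Benjamini-Hochberg adjusted p of 0.05, and so did 90.3% of the 16425 genes tested. For each strain against the mean of the other 7, the number of members called is given beside the share of all genes called in that direction, and nothing is read from it because the members were chosen on these contrasts. In 129, 3 members were called higher (16.8% of genes) and 1 lower (14.1%), and in AJ 0 higher (21.1%) and 1 lower (18.1%). In B6, 4 were called higher (17.5%) and 1 lower (14.3%), in Cast 0 higher (30.9%) and 3 lower (29.3%), and in NOD 2 higher (19.8%) and 2 lower (13.9%). In NZO, 1 was called higher (22.5%) and 2 lower (18.6%), in PWK 4 higher (27.4%) and 1 lower (26.8%), and in WSB 2 higher (25.6%) and 2 lower (19.8%). Without WSB_1, 3 of these counts differed, with 4 members higher in 129 (20.4%), 5 lower in Cast (31.0%) and 3 higher in WSB (23.4%). Without Cast_1, Cast_5 and Cast_6 none of the counts differed.

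Kcnj14, a Kir2 subunit better known from brain than from heart, differed among strains far more than the other members. Its level in 129 had a lowest value of 38.7, a median of 47.7 and a highest of 64.5 CPM (mean 49.1 ± 8.71, SD, n = 8). In the other strains the means were 9.52 ± 3.02 CPM in NZO, 5.81 ± 1.54 in PWK, 3.11 ± 0.786 in AJ, 2.20 ± 0.705 in NOD, 1.44 ± 0.804 in WSB, 0.873 ± 0.516 in Cast and 0.801 ± 0.374 in B6 (SD, n = 8, Cast n = 7). All 8 of the 129 libraries lay above every library of the other strains, whose highest was an NZO library at 12.7 CPM. No other member had a strain that cleared all others in this way, and 0.177% of all genes tested did so in 129.

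Against the mean of the other strains Kcnj14 in 129 was higher by 4.40 ± 0.12 log2 units (SE). The pairwise differences of 129 ran from 2.37 ± 0.19 log2 units over NZO and 3.08 ± 0.20 over PWK to 5.83 ± 0.27 over Cast and 5.96 ± 0.26 over B6 (SE), the last a 62.1-fold difference. Of all genes tested, 2.41% had a wider range of strain levels than Kcnj14. On the authors' variance-stabilised scale the difference of 129 from the other strains was 2.85 log2 units and the range 3.43.

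Below 129 the strains formed a graded order for Kcnj14. These levels rest on 975 to 1601 counts per library in 129, against 102 to 361 in NZO, 20 to 85 in WSB, 10 to 48 in Cast and 9 to 34 in B6. NZO (3.67 to 12.7 CPM) overlapped PWK (4.42 to 8.67 CPM), and PWK lay above every AJ library (2.11 to 4.06 CPM). AJ and NOD differed by more than the larger of their SDs yet overlapped, and the neighbours NOD with WSB, WSB with Cast, and Cast with B6 differed by less than it. Without WSB_1 the WSB mean was 1.54 ± 0.818 CPM (SD, n = 7). Cast_1, Cast_5 and Cast_6 were the lowest Cast libraries, at 0.380 to 0.491 CPM, against 0.863 to 1.84 CPM in the others. Without them Cast averaged 1.20 ± 0.435 CPM (SD, n = 4). Its difference from the other strains was then -1.80 ± 0.29 log2 units, against -2.26 ± 0.25 with them (SE). The pairwise difference of 129 from Cast was not computed without them. Strain accounted for a share of 0.925 of the variance of Kcnj14 over libraries (adjusted R2 on log2 CPM), above 97.9% of genes tested, whose median share was 0.443.

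Kcnj2, the main ventricular Kir2 subunit, was highest in WSB, where the lowest, median and highest libraries held 28.5, 83.0 and 117 CPM. The WSB mean was 83.7 ± 29.4 CPM (SD, n = 8), and 91.5 ± 20.7 CPM without WSB_1 (SD, n = 7), which was the lowest library of all 63. NOD averaged 70.1 ± 11.4 CPM, 129 63.4 ± 12.3, B6 57.8 ± 8.25, PWK 50.1 ± 15.8, AJ 41.1 ± 5.03, NZO 38.7 ± 7.93 and Cast 38.6 ± 4.85 (SD). The difference of WSB from the other strains was 0.74 ± 0.12 log2 units (SE), and 0.87 ± 0.10 without WSB_1. No neighbours in this order differed by more than the larger of their SDs, except that without WSB_1 WSB and NOD did. Without WSB_1, Kcnj2 was also called higher in 129 (0.26 ± 0.10 log2 units, SE). The PWK libraries held 4 values from 32.8 to 40.5 CPM and 4 from 55.7 to 73.3 CPM, with none between.

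Kcnj12, which forms channels with Kcnj2 in ventricular muscle, fell into a higher and a lower set of strains. It averaged 17.9 ± 1.63 CPM in 129 (16.2 to 20.4), 17.3 ± 1.37 in B6 (15.4 to 19.5) and 17.0 ± 2.06 in PWK (14.4 to 20.5). The other strains averaged 13.2 ± 1.48 CPM in NOD, 13.0 ± 1.16 in AJ, 12.9 ± 4.20 in WSB, 11.6 ± 1.55 in NZO and 11.2 ± 3.49 in Cast (SD). Without WSB_1 WSB averaged 14.4 ± 1.11 CPM (SD, n = 7), and without Cast_1, Cast_5 and Cast_6 Cast averaged 9.65 ± 1.47 CPM (SD, n = 4). Between PWK and NOD the means differed by more than the larger SD, and the libraries of both strains overlapped. Without WSB_1 PWK was followed by WSB, and those means differed by more than the larger SD too.

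Per kilobase, Kcnj14 was a minor Kir2 transcript in most strains and the most abundant in 129. It made up 49.98 ± 6.50% of the summed Kcnj14, Kcnj2 and Kcnj12 level in 129 (41.5 to 58.5%, SD, n = 8), against 23.4 ± 5.72% in NZO, 12.8 ± 4.85% in PWK, 8.59 ± 2.00% in AJ, 4.38 ± 1.09% in NOD, 2.98 ± 2.04% in Cast, 2.91 ± 1.66% in WSB (2.69 ± 1.66% without WSB_1) and 1.74 ± 0.806% in B6. The summed Kir2 level was 36.4 ± 2.77 CPM per kb in 129 (32.2 to 40.9), against strain means of 11.5 to 20.6 CPM per kb elsewhere and 27.8 CPM per kb in the highest other library. The WSB mean of this sum was 20.6 ± 6.70 CPM per kb, and 22.6 ± 3.85 without WSB_1 (SD, n = 7). The level of Kcnj2 per kilobase in 129 was 11.6 CPM per kb, within the 7.09 to 15.4 of the other strains, so its smaller share in 129 came with no lower level. The 5 ventricular markers also summed highest in 129, to 50823 to 54955 CPM, against 27762 to 49228 CPM in the other libraries, and their part in the Kcnj14 level was not tested. Myh6 weighs most in that sum (median 30385 CPM over all libraries), and the markers are not given singly.

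**Figure D2:**
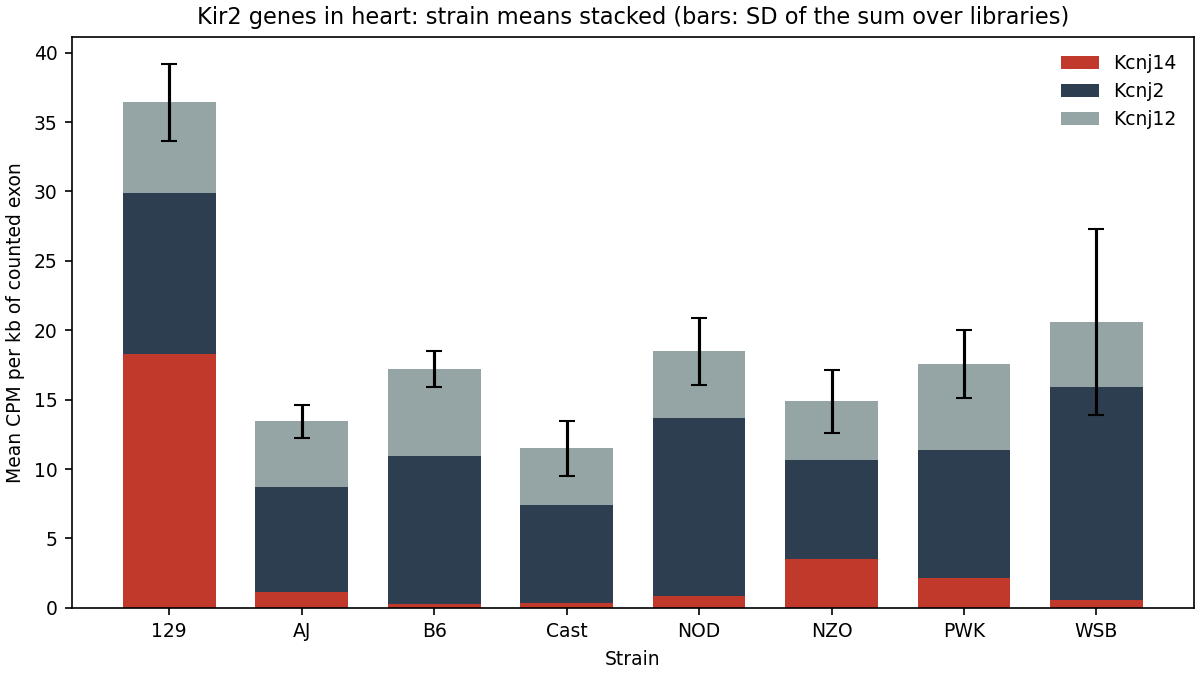
Mean level of the 3 Kir2 genes per kilobase of counted exon (vertical axis, CPM per kb) stacked for each strain (horizontal axis), with the SD of the summed level over libraries as error bars. Kcnj14 makes up 18.3 of 36.4 CPM per kb in 129 and 0.298 of 17.2 CPM per kb in B6.

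The genes next to Kcnj14 on chromosome 7 were compared between 129 and the other strains, since their levels did not enter the choice of members. Of 10 genes within 100 kb, 9 were tested and 2 were called by edgeR's quasi-likelihood test, 1 higher and 1 lower, where 16.8% and 14.1% of all genes were called. Kdelr1, which encodes a receptor that retrieves proteins to the endoplasmic reticulum, averaged 47.3 ± 3.58 CPM in 129, against 56.2 CPM in the other strains (log2 fold change -0.24 ± 0.03 SE, adjusted p = 9.22e-09). Rpl18, a ribosomal protein gene of a class with many processed pseudogenes, averaged 106 ± 9.75 CPM in 129, against 95.3 CPM in the other strains (0.16 ± 0.06, adjusted p = 0.0436). The 2 genes nearest to Kcnj14 did not pass: Grwd1, 470 bases away, had a log2 fold change of 0.15 ± 0.07 (adjusted p = 0.0934) and Cyth2, 2144 bases away, one of 0.12 ± 0.06 (adjusted p = 0.0987).

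The remaining 5 tested neighbours had log2 fold changes in 129 of 0.26 ± 0.41 for Fam83e, 0.11 ± 0.07 for Tmem143, 0.10 ± 0.07 for Sphk2, -0.08 ± 0.18 for Grin2d and -0.16 ± 0.12 for Emp3 (SE), with adjusted p from 0.251 to 0.785. For Fam83e the fitted fold change and the means differed in sign, with 0.162 CPM in 129 and 0.197 CPM in the other strains, and no direction is read from it. All 9 differences were at most 0.26 log2 units in size, beside 4.40 for Kcnj14. Without Cast replicates 1, 5 and 6 the number of neighbours called was 4, with Cyth2 at an adjusted p of 0.00815 and Sphk2 at 0.0414. Of all genes, 17.7% were then called higher in 129 and 14.7% lower. Without WSB_1 Cyth2 reached an adjusted p of 0.0497. Kcnj11, on the same chromosome at a greater distance, was lower in 129 than in the other strains, as given with the KATP genes.

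**Figure D3:**
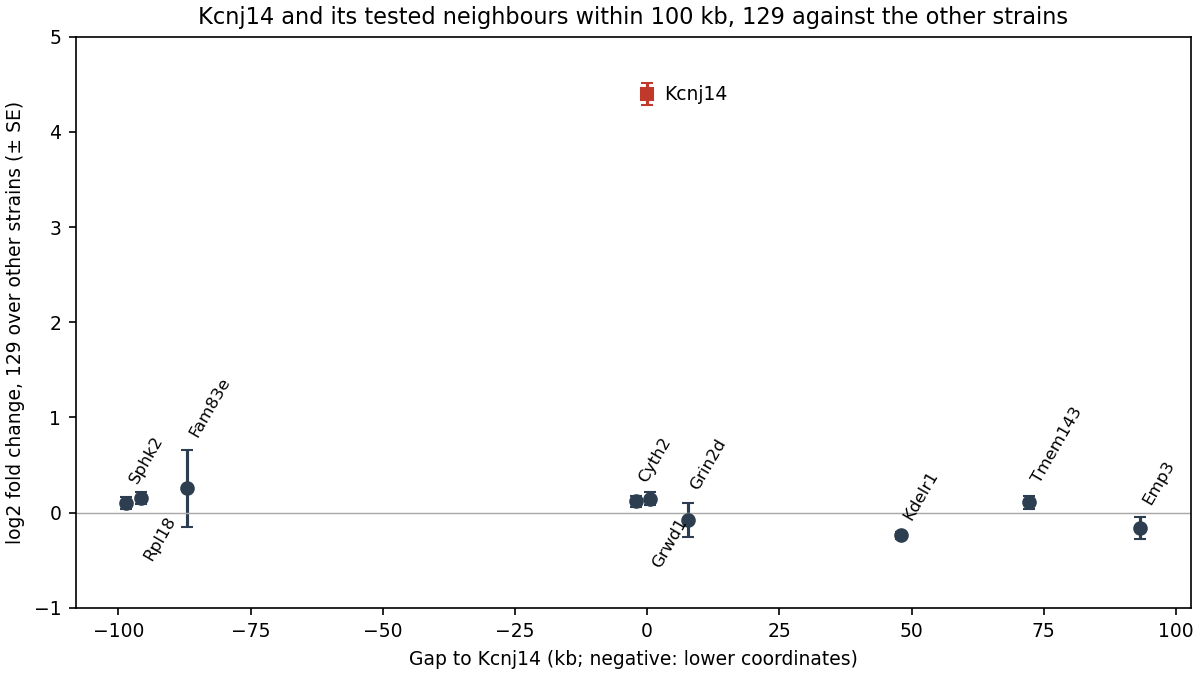
Log2 fold change of 129 over the other strains with its SE (vertical axis) for Kcnj14 (square) and its 9 tested neighbours (circles), by gap to Kcnj14 in kb (horizontal axis). Kcnj14 stands at 4.40 and the neighbours lie between -0.24 and 0.26.

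The GIRK genes Kcnj3 and Kcnj5 encode partners of the same channel but were highest in different strains. Kcnj3 was highest in B6, with 93.6, 136 and 166 CPM as lowest, median and highest library (mean 131 ± 26.3, SD, n = 8). It averaged 112 ± 13.0 CPM in 129, 98.8 ± 7.81 in NOD, 93.7 ± 15.3 in NZO, 85.9 ± 8.53 in AJ, 79.7 ± 11.996 in Cast, 75.1 ± 5.59 in PWK and 64.9 ± 18.1 in WSB (SD). Of these neighbours 129 and NOD differed by more than the larger SD, with overlapping libraries. B6 differed from the other strains by 0.61 ± 0.09 log2 units and WSB by -0.55 ± 0.10 (SE), and without WSB_1 the WSB mean was 70.2 ± 10.97 CPM (SD, n = 7) and its difference -0.43 ± 0.08, and Cast was called lower (-0.23 ± 0.08). Summed with the antisense gene Gm26794, which held 4.16 to 9.10 CPM in the strain means, Kcnj3 averaged 140 ± 28.1 CPM in B6 and 69.1 ± 19.7 CPM in WSB (SD), at the ends of the same order.

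Kcnj5 was highest in PWK, at 106, 123 and 140 CPM in the lowest, median and highest library (mean 123 ± 11.02, SD, n = 8). The other strains averaged 80.8 CPM, with means from 73.2 CPM in WSB to 89.0 CPM in B6, and PWK lay 0.61 ± 0.12 log2 units above them (SE). The PWK range overlapped Cast_5 at 134 CPM, Cast_6 at 120 CPM and B6_7 at 107 CPM, and lay above the remaining libraries. Cast was the most spread strain, from 39.7 CPM in Cast_1 to 134 CPM in Cast_5 (mean 84.0 ± 32.3, SD, n = 7), and averaged 73.7 ± 6.25 CPM without replicates 1, 5 and 6 (SD, n = 4). Those replicates were left out because of their Kcnj5 values, so the smaller SD follows from that choice. In WSB, Kcnj5 held 16.2 CPM in WSB_1 and 81.3 ± 9.88 CPM in the other libraries (SD, n = 7).

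The ratio of the partners therefore differed among strains too. Kcnj3 per kilobase was 0.532 ± 0.0719 times Kcnj5 per kilobase in PWK (0.417 to 0.649), against 1.26 ± 0.0948 in B6, 1.16 ± 0.112 in 129, 1.08 ± 0.126 in NOD, 1.02 ± 0.184 in NZO, 0.955 ± 0.0813 in AJ, 0.939 ± 0.395 in Cast and 0.835 ± 0.265 in WSB (SD). All PWK libraries lay below all libraries of the other strains but for Cast_5 at 0.392 and Cast_6 at 0.609, the Cast libraries with the most Kcnj5. Without WSB_1, whose ratio was 1.48, the WSB mean was 0.743 ± 0.0554 (SD, n = 7). The 5 atrial markers summed to a median of 1287 CPM in PWK, inside the 1229 to 1770 CPM of the medians of the other strains.

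**Figure D4:**
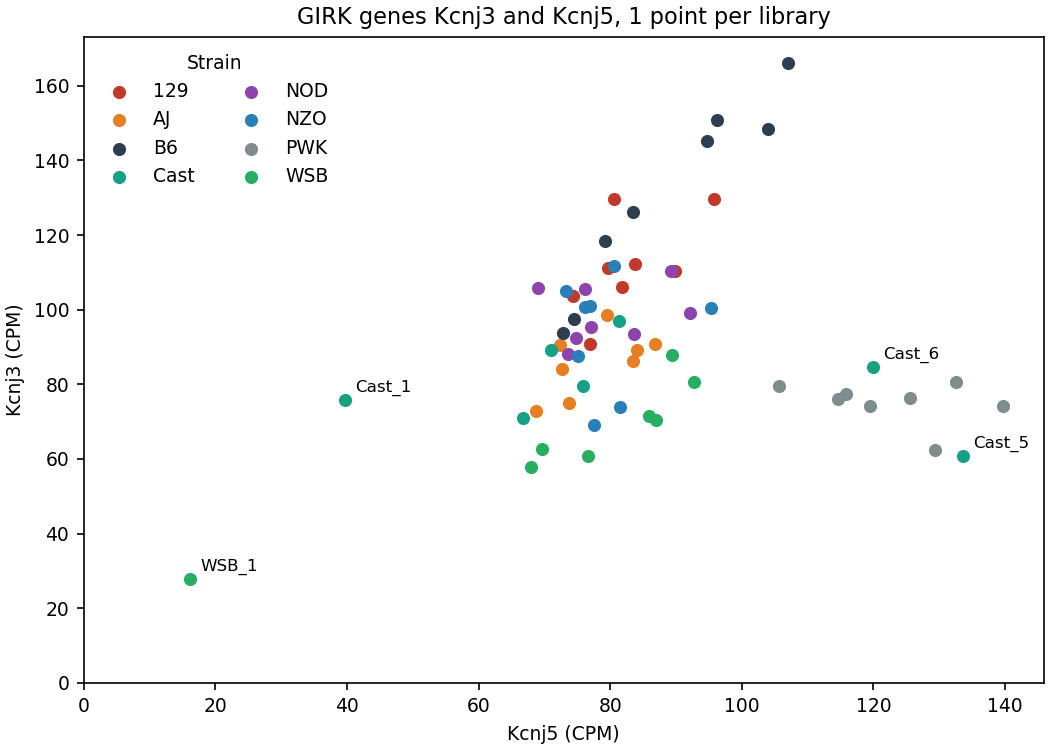
Kcnj3 (vertical axis, CPM) against Kcnj5 (horizontal axis, CPM), with a point per library coloured by strain. The PWK libraries hold 106 to 140 CPM of Kcnj5 at 62.5 to 80.7 CPM of Kcnj3, B6 reaches 166 CPM of Kcnj3, and WSB_1 is the lowest library for both genes.

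The KATP pore genes had the narrowest ranges of strain levels among the members, 0.65 log2 units for Kcnj8 and 0.61 for Kcnj11, close to the 0.67 of Kcnj12. Kcnj8, a gene of pericytes and vascular smooth muscle, was highest in B6 at 19.8, 24.6 and 26.6 CPM in the lowest, median and highest library (mean 23.5 ± 2.44, SD, n = 8). It was lowest in NOD at 11.9, 15.6 and 17.4 CPM (mean 14.9 ± 1.93, SD, n = 8), and the B6 libraries lay above all NOD libraries. The means were 21.6 ± 2.38 CPM in WSB (21.4 ± 2.51 without WSB_1), 21.1 ± 1.82 in PWK, 19.8 ± 3.11 in AJ, 18.5 ± 2.30 in Cast, 18.4 ± 1.86 in 129 and 18.2 ± 1.74 in NZO (SD). Only the last step, between NZO and NOD, exceeded the larger SD of its neighbours. The difference from the other strains was 0.32 ± 0.06 log2 units in B6 and -0.43 ± 0.07 in NOD (SE).

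Kcnj11, the pore of the KATP channel of heart muscle, averaged 42.0 ± 3.42 CPM in NOD (34.8 to 45.9) and 41.9 ± 2.68 in B6 (38.7 to 46.5), against 27.5 ± 1.63 CPM in 129 (25.1 to 30.0) (SD, n = 8 each). The libraries of 129 did not overlap those of NOD or of B6. The other means were 36.5 ± 2.28 CPM in NZO, 35.5 ± 2.05 in AJ, 35.1 ± 2.56 in PWK, 34.5 ± 11.8 in WSB and 30.4 ± 3.26 in Cast (SD). WSB_1 held 5.72 CPM, and the other WSB libraries averaged 38.6 ± 2.26 CPM (SD, n = 7). Of the steps in this order that from B6 to NZO exceeded the larger SD of its neighbours. Without WSB_1, WSB came between B6 and NZO, and the steps from B6 to WSB and from PWK to Cast exceeded it. Against the other strains 129 differed by -0.40 ± 0.11 log2 units, NOD by 0.30 ± 0.10 and B6 by 0.29 ± 0.10 (SE). Without WSB_1, Cast was called lower as well (-0.26 ± 0.04) and WSB higher (0.13 ± 0.04). The ratio of Kcnj11 to Kcnj8 per kilobase was 6.20 ± 0.787 in NOD (5.48 to 7.84), against strain means of 3.28 to 4.42 elsewhere, and of the other strains a single library, NZO_8 at 5.64, reached into the NOD range. In WSB this ratio was 3.55 ± 1.34, and 3.98 ± 0.603 without WSB_1 (SD, n = 7).

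The sulfonylurea receptors that complete the KATP channel are not members, and both passed the test over strains by edgeR's quasi-likelihood F test. Abcc9 (SUR2), the receptor of ventricular and vascular KATP channels, averaged 276 ± 16.4 CPM in NZO, against 391.5 to 616 CPM in the means of the other strains (log2 fold change -0.80 ± 0.10 SE, adjusted p = 8.73e-10). In Cast it averaged 616 ± 76.4 CPM (0.53 ± 0.09, adjusted p = 2.26e-06). Abcc8 (SUR1), known from islets and from mouse atrium, averaged 46.9 ± 2.90 CPM in AJ (0.34 ± 0.05, adjusted p = 1.82e-07) and 28.1 ± 4.18 CPM in WSB (-0.51 ± 0.06, adjusted p = 1.54e-11). Without WSB_1 the WSB value of Abcc8 was 28.5 ± 4.28 CPM, and that of Abcc9 was 514 ± 23.7 CPM, where its difference of 0.21 ± 0.04 passed the test (adjusted p = 8.45e-05) and with WSB_1 it did not (0.06 ± 0.09, adjusted p = 0.626). With WSB_1 included, neither receptor was called in NOD or B6, the strains with the highest Kcnj11 (adjusted p from 0.0653 to 0.722). Abcc9 differed there by -0.22 ± 0.09 log2 units in NOD and 0.17 ± 0.09 in B6 (SE). Its calls in these strains without WSB_1 are not given here, so equal levels are not read from this.

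Within strains, 9 pairs of measures were related over the 63 libraries, as deviations of log2 CPM from the strain mean, with two-sided permutations of libraries within strains and adjustment over the 9 pairs. Kcnj8 followed the mean of the 6 pericyte markers (Rgs5, Pdgfrb, Cspg4, Notch3, Higd1b and Vtn), with Pearson r = 0.504 (permutation p = 4e-05, adjusted p = 0.00036) and Spearman rho = 0.509 (p = 7e-05, adjusted p = 0.00063). The coefficient was positive in all 8 strains, from 0.176 in Cast to 0.940 in WSB, 0.504 without the 2 libraries farthest from the median of the pericyte score, and 0.501 without WSB_1. Between strains, WSB, PWK and B6 had the highest means of both Kcnj8 and the summed pericyte markers (784, 736 and 709 CPM for the markers), and AJ came next in both. Cast departed from this order: the 6 markers summed to 335 to 401 CPM in Cast, against 508 to 945 CPM in the libraries of the other strains, while the Kcnj8 mean of Cast lay between those of AJ and 129. NZO and NOD departed too, with marker means of 648 and 589 CPM, above the 540 CPM of 129. Their Kcnj8 means, 18.2 and 14.9 CPM, lay below the 18.4 CPM of 129. In these sums Rgs5 weighs most, with a median of 508 CPM over all libraries, against 3.84 to 56.5 CPM for each other marker. The within-strain score gives the markers equal weight, so the order between strains is another measure that mostly follows Rgs5. The 4 smooth muscle markers (Acta2, Myh11, Tagln and Cnn1) had their highest means in AJ (481 CPM) and 129 (354 CPM). They held 230 CPM in WSB, 220 in B6 and 218 in PWK. Over the 63 libraries Kcnj8 showed no such relation to Abcc9 (r = -0.120, permutation p = 0.400, adjusted p = 0.400, and rho = -0.153, adjusted p = 0.251). By strain this r ran from -0.884 in Cast to 0.913 in PWK and was positive in 2 of the 8 strains.

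**Figure D5:**
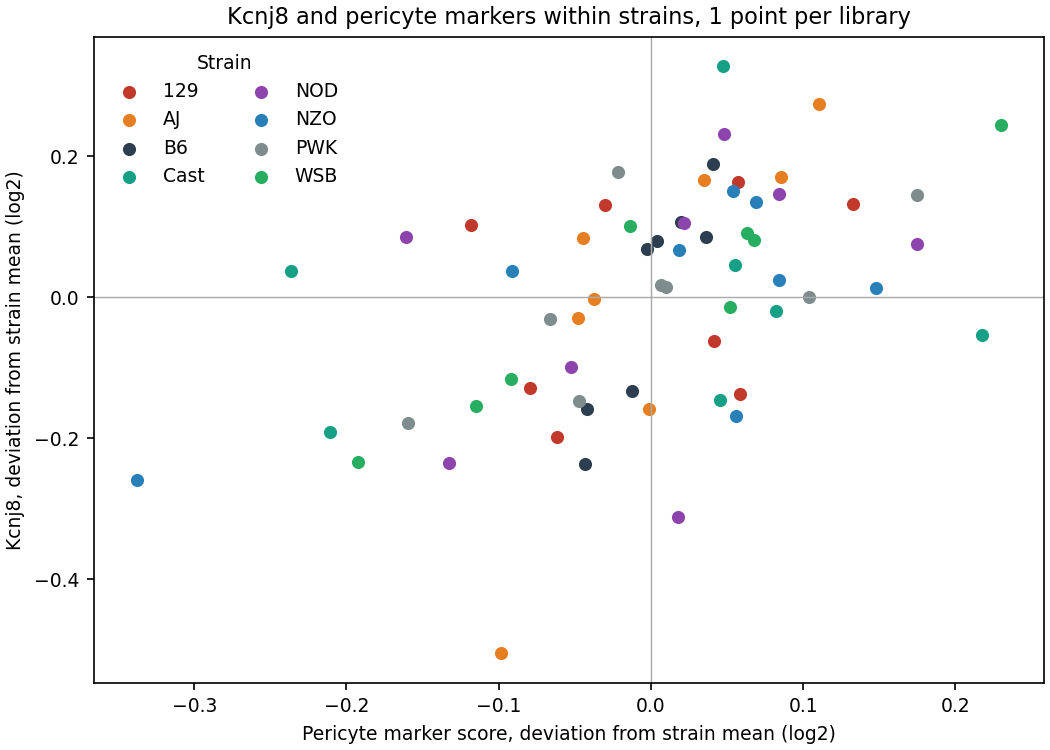
Kcnj8 (vertical axis) against the pericyte marker score (horizontal axis), both as log2 deviations from the strain mean, with a point per library coloured by strain. The points rise from lower left to upper right with Pearson r = 0.504 over 63 libraries.

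Kcnj3 and Kcnj5 were related within strains at r = 0.621 (permutation p = 0.00527, adjusted p = 0.0237) and rho = 0.471 (p = 0.00032, adjusted p = 0.00144). The linear relation rested on WSB_1: without it r was 0.257 (adjusted p = 0.153) and rho 0.461 (adjusted p = 0.00351), and without Cast_1 and WSB_1, the 2 libraries farthest from the median of Kcnj5, r was 0.361. By strain, r was 0.968 in WSB, 0.964 in B6, 0.616 in AJ and 0.606 in 129, and -0.186 in Cast and -0.328 in PWK, the strain with the most Kcnj5. The Cast coefficient included Cast_1, Cast_5 and Cast_6, whose Kcnj5 deviations were -0.99, 0.76 and 0.61 log2 units. Those of the other Cast libraries ran from -0.24 to 0.05, and the coefficient was not computed over them alone.

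With the mean of the 5 atrial markers, Kcnj3 gave r = 0.342 (permutation p = 0.0323, adjusted p = 0.0727) and rho = 0.379 (adjusted p = 0.0102), and Kcnj5 gave r = 0.154 (permutation p = 0.252, adjusted p = 0.284) and rho = 0.382 (adjusted p = 0.0102). Without WSB_1 the relations of Kcnj3 (r = 0.493, adjusted p = 0.0027) and Kcnj5 (r = 0.315, adjusted p = 0.0214) passed, as did that of Kcnj3 without WSB_6, the library lowest in atrial markers among WSB (r = 0.399, adjusted p = 0.00661). Kcnj14 gave r = 0.240 (permutation p = 0.124, adjusted p = 0.164) and rho = 0.101 (adjusted p = 0.472) with the atrial markers.

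For Kcnj11, the relation to Abcc8 had r = 0.265 (permutation p = 0.127, adjusted p = 0.164) and rho = 0.338 (adjusted p = 0.0121), and r = 0.368 without WSB_1 (adjusted p = 0.0153). Kcnj11 with Abcc9 had r = 0.877 (permutation p = 0.0941, adjusted p = 0.164) and rho = 0.269 (adjusted p = 0.251), and r = -0.104 without WSB_1. Kcnj2 with Kcnj12 had r = 0.532 (permutation p = 0.0310, adjusted p = 0.0727) and rho = 0.166 (adjusted p = 0.251), r = 0.0840 without WSB_1 and r = 0.576 without PWK_1 (adjusted p = 0.0446). The coefficients of Kcnj11 with Abcc9 and of Kcnj2 with Kcnj12 thus rested on WSB_1.

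Other genes of the pathway were taken from 6 lists chosen with earlier results of these data known. Of 61 genes, 56 were in the count table, 55 were tested and 49 passed over the strains by edgeR's quasi-likelihood F test, beside 90.3% of all genes, with a median range of strain levels of 0.60 log2 units, beside 0.80 for all genes tested. Against the other strains, with the share of all genes called in that direction in brackets, 16 of the 55 were called higher (21.1%) and 6 lower (18.1%) in AJ, and 5 higher (17.5%) and 14 lower (14.3%) in B6. In Cast 16 were higher (30.9%) and 16 lower (29.3%), in PWK 17 higher (27.4%) and 13 lower (26.8%), and in WSB 11 higher (25.6%) and 21 lower (19.8%). In NZO 13 were higher (22.5%) and 12 lower (18.6%), in NOD 9 higher (19.8%) and 6 lower (13.9%), and in 129 7 higher (16.8%) and 6 lower (14.1%). Without Cast_1, Cast_5 and Cast_6, 9 were called higher in Cast. Of the genes named from these lists, only Chrm2 is given here without these libraries. The median log2 fold change of the 55 genes lay between -0.09 in WSB and 0.07 in AJ, beside medians over all genes of -0.01 to 0.02.

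Of the receptors and G proteins that act on GIRK channels, 16 of 19 passed over strains, and Gnai2, Gnb2 and Gng11 did not. Chrm2, the muscarinic receptor that opens these channels in heart, rose in PWK together with the high Kcnj5 there, to 277 ± 19.5 CPM, against strain means of 119 to 227 CPM elsewhere (log2 fold change 0.69 ± 0.12 SE, adjusted p = 3.56e-06), and fell in WSB to 119 ± 43.6 CPM (-0.71 ± 0.14, adjusted p = 3.15e-05). Without WSB_1 Chrm2 in WSB was 133 ± 17.1 CPM (-0.54 ± 0.09, adjusted p = 1.78e-06). Chrm2 in Cast rose by 0.37 ± 0.14 log2 units (adjusted p = 0.0170), a call lost without replicates 1, 5 and 6 (0.05 ± 0.16, adjusted p = 0.834).

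Adora1, the adenosine A1 receptor, averaged 42.0 ± 25.1 CPM in Cast and 9.06 ± 2.16 CPM in B6, the highest and lowest strains (adjusted p over strains = 9.55e-21). The Cast libraries were widely spread for it, from 25.1 to 97.3 CPM. Rgs6, which speeds the closing of GIRK channels, averaged 16.8 ± 3.09 CPM in B6 and 4.01 ± 1.02 CPM in Cast (adjusted p = 9.20e-28). Rgs6 was called higher in B6 and 129, the strains with the most Kcnj3, and also in PWK, a strain low in Kcnj3 (15.4 ± 1.15 CPM, log2 fold change 0.78 ± 0.07 SE, adjusted p = 3.46e-15). Gng7, a G protein gamma subunit, averaged 2.40 ± 0.693 CPM in AJ and 0.215 ± 0.101 CPM in PWK (adjusted p = 1.59e-19).

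Of the Kir2 scaffold and membrane partners, 10 of 11 passed, and Flna did not. Dlg1 (SAP97), a scaffold that binds the tail of Kir2 channels, averaged 97.4 ± 5.82 CPM in NOD and 54.8 ± 2.07 CPM in PWK (adjusted p over strains = 1.07e-17), and did not pass in 129 (0.01 ± 0.05 log2 units, adjusted p = 0.955). Sntb1, a syntrophin, averaged 13.1 ± 4.81 CPM in Cast and 1.89 ± 0.284 CPM in B6 (adjusted p = 5.85e-28), and Akap5, a kinase anchor, averaged 4.90 ± 1.24 CPM in PWK and 0.266 ± 0.144 CPM in WSB (adjusted p = 1.18e-20).

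Of 10 genes of PIP2 synthesis, 9 passed, Pi4ka being the exception. Pi4k2b had 4.10 ± 0.721 CPM in PWK and 2.11 ± 0.400 CPM in AJ (adjusted p over strains = 1.62e-10), and the kinase Pip5k1b had 38.3 ± 2.21 CPM in AJ and 19.8 ± 3.64 CPM in Cast (adjusted p = 1.59e-08). Pi4k2a had 25.2 ± 7.83 CPM in Cast (18.1 to 39.3) and 16.5 ± 0.837 CPM in WSB (adjusted p = 7.04e-10). Of 10 genes of polyamine metabolism, 9 passed and Sat1 did not. Spermine synthase (Sms) averaged 144 ± 20.7 CPM in Cast and 54.7 ± 2.19 CPM in B6 (adjusted p = 2.62e-27). Amd1, which supplies the aminopropyl donor, averaged 183 ± 34.3 CPM in 129 and 83.3 ± 9.26 CPM in PWK (adjusted p = 2.24e-12), and the polyamine oxidase Paox 3.07 ± 0.662 CPM in Cast and 1.33 ± 0.254 CPM in NOD (adjusted p = 2.22e-08).

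The remaining Kcnj genes of the table, Kcnj4, Kcnj10 and Kcnj15, were low and all passed over strains. Kcnj4 (Kir2.3) averaged 1.53 ± 0.450 CPM in NOD and 0.213 ± 0.197 CPM in B6 (adjusted p over strains = 2.21e-15), and in 129 held 0.647 ± 0.299 CPM with no call (-0.18 ± 0.23 log2 units, adjusted p = 0.594). Kcnj10 averaged 0.824 ± 0.200 CPM in NZO and 0.128 ± 0.0795 CPM in WSB (adjusted p = 6.06e-10), and Kcnj15 3.001 ± 0.663 CPM in B6 and 1.96 ± 0.815 CPM in Cast (adjusted p = 0.000602). Kcnj1, Kcnj6, Kcnj9, Kcnj13 and Kcnj16 were not in the count table, so they were not analysed here.

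The genes whose pattern was most like each member were sought among all tested genes by Pearson r over the 63 libraries, as a description in which all pairs share the libraries and their depth. For log2 CPM these were Mboat2 (0.821), Colec12 and Glg1 for Kcnj14, N4bp2 (0.748), Rnf217 and Fgfr1op2 for Kcnj2, and Pln (0.840), Mef2a and Corin for Kcnj12. They were Oxr1 (0.821), Kif16b and Rps6ka5 for Kcnj3, and Adra1b (0.884), Chrm2 (0.855) and Cdh2 for Kcnj5. For the KATP genes they were Abcb1a (0.627), Rmnd1 and Mrpl55 for Kcnj8 and Lmtk2 (0.901), Fam20b and Dsp for Kcnj11.

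For deviations from strain means, the most alike genes were Igsf1 (0.783), Tmem25 and Reep5 for Kcnj14, Zfp507 (0.752), Kbtbd7 and Mars2 for Kcnj2, and Fhod3 (0.900), Mylk3 and Dag1 for Kcnj12. They were Ghr (0.860), Erbb4 and Nebl for Kcnj3, Chrm2 (0.914), Cdip1 and D5Ertd579e for Kcnj5, and Atp2a2 (0.953), Sptb and Fhod3 for Kcnj11. For Kcnj8 they were Pdgfrb (0.518), Tbx2 and Vtn (0.506), of which Pdgfrb and Vtn are on the pericyte list. Without WSB_1, the coefficients for log2 CPM were 0.818 for Kcnj14 with Mboat2, 0.735 for Kcnj2 with N4bp2, 0.673 for Kcnj12 with Pln, 0.763 for Kcnj3 with Oxr1, 0.788 for Kcnj5 with Adra1b, 0.698 for Kcnj5 with Chrm2, 0.619 for Kcnj8 with Abcb1a and 0.718 for Kcnj11 with Lmtk2. For deviations they were 0.775 for Kcnj14 with Igsf1, 0.581 for Kcnj2 with Zfp507, 0.597 for Kcnj12 with Fhod3, 0.772 for Kcnj3 with Ghr, 0.766 for Kcnj5 with Chrm2, 0.530 for Kcnj8 with Pdgfrb, 0.506 for Kcnj8 with Vtn and 0.223 for Kcnj11 with Atp2a2. For deviations, Kcnj11 also fell without WSB_1 from 0.949 to 0.364 with Sptb and from 0.946 to 0.489 with Fhod3. For log2 CPM it fell from 0.837 to 0.393 with Fam20b and from 0.837 to 0.326 with Dsp. The likeness of Kcnj11 to Atp2a2, Sptb, Fhod3, Fam20b and Dsp thus rested largely on WSB_1, and that to Lmtk2 less so.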

How the data were processed

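Heart RNA of 63 libraries from 8 strains was measured by polyA RNA-seq, with RNA from frozen, pulverised tissue per the labels' protocols. The deposited table holds expected counts per gene (estimated counts, 18.4% not whole at a tolerance of 1e-06) that the authors assigned on GRCm38, per the submitters' processing notes. It lists genes above 0 in at least 32 libraries. The authors' deposited log2 values, variance-stabilised with DESeq2 per the submitters' processing notes, served as an alternative. The sources used here name no aligner, counter or strand setting.

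The counts were rounded. Tests ran in edgeR 4.0.16, with DESeq2 1.42.0 and limma 3.58.1 as alternatives (R 4.3.3). filterByExpr (minimum count 10) kept 16425 genes, including all 7 members, and left out 2795. TMM factors ran from 0.828 to 1.16. The robust quasi-likelihood fit estimated a level for each strain, which left 55 degrees of freedom. Each strain was tested against the unweighted mean of the other 7, and the SE is the log2 fold change over the root of F. Adjusted p-values are Benjamini-Hochberg over all genes tested, with 0.05 as threshold. A CPM given for the other strains averages their 7 strain means. Correlations used a prior count of 2 and 100000 permutations. The procedures were tested on simulated data. Sequences, exon lengths and shared windows came from GENCODE M21. The Kcnj12 sequence is not reported here. The precision of counts covers counting error only.

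The members, lists, pairs and alternatives were chosen with earlier results of these data known. Named were all members, the 3 genes per list with the widest range among those past the test, Abcc8, Abcc9, Kcnj1, Kcnj4, Kcnj16 and Chrm2 wherever measured, all tested neighbours of Kcnj14 within 100 kb, and the 3 genes most like each member by either measure. Predicted genes, clone names and Rik symbols were passed over. Gm26794 and Gm5522 were named after their overlap was seen. Replicate numbers in the titles were not taken to pair the strains: over 199 same-numbered pairs the deviations from strain means correlated at a mean of 0.0420 (-0.162 to 0.377). Over differently numbered pairs of different strains the mean was -0.00534. For 14 libraries the most alike library of another strain had the same number, so some structure by number is not excluded.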

Additional observations from a re-analysis of the deposited data

Results flagged for a closer look

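Of 56 groups of libraries, 1 for each member and strain, 8 held a library set apart from the rest of its group by a gap that is large for the range of that group, where chance gives about 1 in 20. WSB_1 accounts for 3 of them: Kcnj11 at 5.72 CPM, with the other WSB libraries at 35.3 to 41.8, Kcnj12 at 2.84 CPM, with the others at 13.2 to 16.2, and Kcnj5 at 16.2 CPM, with the others at 67.9 to 92.8. In Cast, Kcnj12 was high in Cast_6 at 18.6 CPM, with the others at 7.64 to 11.5, and Kcnj8 in Cast_5 at 23.1 CPM, with the others at 16.1 to 19.0. The others were Kcnj3 in PWK_5 at 62.5 CPM (74.1 to 80.7 in the other PWK libraries), Kcnj5 in NZO_6 at 95.4 CPM (73.3 to 81.5 in the other NZO libraries) and Kcnj12 in AJ_5 at 15.6 CPM (12.04 to 13.5 in the other AJ libraries). No library of Kcnj14 or Kcnj2 was set apart in this way. The causes were not tested.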

How the results depend on the processing

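Results were recomputed with DESeq2 size factors, without the filter on low counts, with DESeq2 tests, on the authors' variance-stabilised values, with library number as a covariate, with the replicate number as a block, and without WSB_1 or Cast replicates 1, 5 and 6. No result past its threshold changed direction. On the variance-stabilised values the range of Kcnj14 was 3.43 log2 units (5.96 as reported), and 6 of its strain differences moved by more than the spread between libraries. Without Cast replicates 1, 5 and 6, 4 neighbours of Kcnj14 were called (2 as reported) and 9 list genes were higher in Cast (16 as reported). With the replicate block, 3 correlations passed that did not before: Kcnj11 with Abcc9 (r = 0.891), Kcnj2 with Kcnj12 (0.622) and Kcnj11 with Abcc8 (0.317). The block changed no other call, and the numbers were not taken to pair the libraries. Leaving out each library in turn, r ran from 0.257 to 0.732 for Kcnj3 with Kcnj5, from 0.465 to 0.539 for Kcnj8 with the pericyte score, from 0.231 to 0.368 for Kcnj11 with Abcc8, from 0.0840 to 0.576 for Kcnj2 with Kcnj12, from 0.272 to 0.493 for Kcnj3 with the atrial score, from 0.127 to 0.315 for Kcnj5 with it, from 0.0714 to 0.290 for Kcnj14 with it, from -0.104 to 0.895 for Kcnj11 with Abcc9 and from -0.174 to -0.0902 for Kcnj8 with Abcc9. The causes were not tested. Depth limits Kcnj14 in B6, Cast and WSB, where libraries held few counts.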
